A study of Sus scrofa with 16 samples.

Results

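The genes described here encode components and regulators of the complement system. They were chosen by name as C1QA, C1QB, C1QC, C1R, C1S, C3, C4A, SERPING1 and CD59, which makes 9 genes. Of these, 4 were found by their pig gene ID among the 21956 gene IDs of the deposited expression table, each with 1 entry: C1QA (ENSSSCG00000003524), C3 (ENSSSCG00000013551), C4A (ENSSSCG00000001427) and SERPING1 (ENSSSCG00000013181). The other 5, C1QB, C1QC, C1R, C1S and CD59, were not found by ID and were not analysed here. In the pig assembly Sscrofa11.1, C1QA lies 1 gene from C1QC and 2 genes from C1QB, and C4A lies 5 genes from CFB and 6 genes from C2.

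The series asked whether necrotizing enterocolitis (NEC), an inflammatory disease of the immature gut, goes along with changed gene expression in the hippocampus. RNA of the whole left hippocampus was sequenced in 16 preterm pigs, crosses of Danish Landrace, Large White and Duroc delivered by cesarean section, infused with sow plasma, given parenteral nutrition and human donor milk of different types, and studied after about a week of this feeding. The No NEC group (noNEC, 5 pigs) had no visible gut lesion, the Co-NEC group (coNEC, 5 pigs) had severe lesions in the colon only, and the Si-NEC group (siNEC, 6 pigs) had severe small-intestinal lesions, whether or not the colon was also affected. The lesions arose spontaneously and the groups were set by lesion scores, so that every pig, No NEC pigs included, was preterm and fed in this way, and none was assigned to a group beforehand. Which milk each pig had is not in the labels. Each group held 2 pigs whose number ends in 14, the others ending in 15, with 2 females among the No NEC pigs, 2 among the Co-NEC pigs and 3 among the Si-NEC pigs. The litter of each pig is not in the labels.

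Complement is a cascade of plasma proteins and receptors that marks cells and debris for removal. In the classical pathway, C1q binds its target and activates the proteases C1r and C1s, which cleave C4 and C2, and the enzyme so formed cleaves C3, the protein on which all pathways converge. SERPING1 encodes the C1 inhibitor, which blocks C1r and C1s, and CD59 encodes a membrane protein that stops the terminal pore. In the brain, microglia are the main source of C1q, astrocytes and microglia can make C3 and C4, and in the developing brain C1q and C3 take part in the removal of synapses by microglia.

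The levels below are FPKM, mapped fragments scaled to the length of the transcript and the size of the library, as the authors deposited them. Read counts are not part of the table, so how many reads stand behind a value is not known. The summed FPKM of a pig ranged from 544629 to 864931, and No NEC pig 230-15 (864931) and Si-NEC pig 223-15 (823320) stood apart from the other 14 pigs. The median Pearson correlation with the other pigs was 0.902 for pig 230-15 and 0.933 for pig 223-15. These 2 pigs held the highest value of 26.3% and 17.5% of the 13590 entries tested. Some of the results that rest on them, not all, are given with and without them. Brain tissue was recognisable from neuronal STMN2 (623 to 1237 FPKM) and SYT1 (251 to 407 FPKM), astrocytic GFAP (438 to 938 FPKM) and oligodendrocyte OPALIN (23.0 to 83.6 FPKM). PROX1, a marker of dentate granule cells, was at 4.92 to 10.3 FPKM. ALDH1L1, another astrocyte gene, was listed at 0 in every pig.

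Over the 16 pigs, C1QA had the highest level of the 4 genes at 29.0 ± 12.5 FPKM (mean ± SD, n = 16). SERPING1 followed at 21.3 ± 7.89 FPKM, C3 at 4.84 ± 1.30 FPKM and C4A at 3.69 ± 3.25 FPKM. FPKM are per length, so these levels can be set side by side. C1QA exceeded SERPING1 in 14 of 16 pigs, with Co-NEC pig 545-14 and Si-NEC pig 246-15 the other way round, and the spreads of the 2 genes overlapped widely. SERPING1 exceeded C3 in 16 of 16 pigs. C3 exceeded C4A in 14 of 16 pigs, the exceptions being Si-NEC pigs 224-15 and 246-15. The mean of C1QA lay above that of 78.9% of the tested entries and that of C4A above 26.3%.

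The members differed in how much pigs of one group varied. The pooled within-group SD on the log2(FPKM + 0.5) scale was 0.71 for C4A, 0.53 for C1QA, 0.41 for SERPING1 and 0.33 for C3, against a median of 0.29 over all tested entries. The SD of C4A was larger than that of 94.2% of the entries and the SD of C1QA larger than that of 87.9%. For C3 this share was 62.5%. As the following values show, 1 or 2 pigs held most of that spread for C1QA, C4A and SERPING1.

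**Figure D1:**
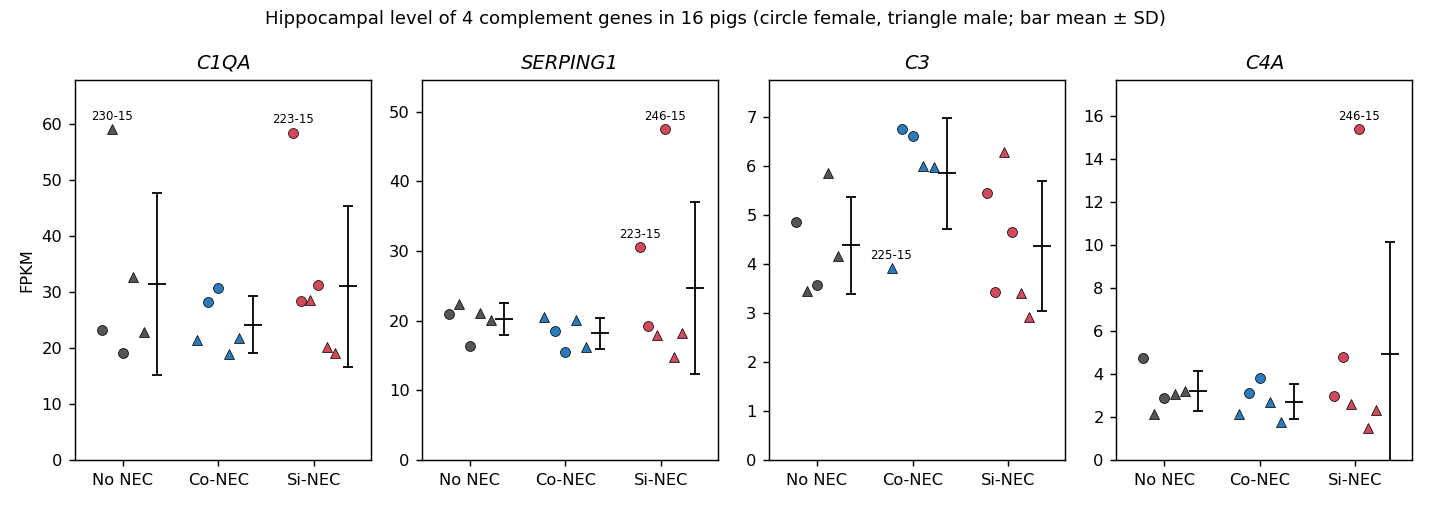
FPKM (vertical axes, from 0) of the 4 complement genes found, with 1 point per pig in the No NEC (n = 5), Co-NEC (n = 5) and Si-NEC (n = 6) groups, circles for females and triangles for males, and the group mean ± SD as a bar (the bar of C4A in Si-NEC pigs is cut at 0). C1QA is highest in pigs 230-15 and 223-15 (59.1 and 58.5 FPKM), C4A and SERPING1 are highest in pig 246-15 (15.4 and 47.5 FPKM), and 4 of 5 Co-NEC pigs lie above all No NEC pigs for C3.

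C1QA encodes the A chain of C1q, the recognition molecule of the classical pathway. In No NEC pigs its level was 32.6, 23.3, 59.1, 19.1 and 22.8 FPKM in pigs 540-14, 228-15, 230-15, 253-15 and 550-14. Co-NEC pigs 225-15, 545-14, 552-14, 255-15 and 231-15 had 21.4, 18.9, 21.9, 30.7 and 28.2 FPKM. Si-NEC pigs ranged from 19.0 FPKM in pig 547-14 to 58.5 FPKM in pig 223-15, with a median of 28.5 FPKM. The 3 groups overlapped, and the highest pigs, 230-15 and 223-15, were a No NEC and a Si-NEC pig, with the third highest value at 32.6 FPKM.

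The group means of C1QA were 31.4 ± 16.3 FPKM in No NEC (SD, n = 5), 24.2 ± 5.00 FPKM in Co-NEC (n = 5) and 31.0 ± 14.4 FPKM in Si-NEC pigs (n = 6). The log2 fold change was 0.0039 (standard error, SE, 0.33, 95% interval −0.71 to 0.72) in Si-NEC relative to No NEC pigs, with an exact permutation p of 0.994. It was −0.27 (SE 0.28, 95% interval −0.88 to 0.35) in Co-NEC relative to No NEC pigs (exact permutation p = 0.460) and 0.27 (SE 0.25, 95% interval −0.28 to 0.82) in Si-NEC relative to Co-NEC pigs (exact permutation p = 0.407). Without pigs 223-15 and 230-15 these differences were 0.06, −0.01 and 0.07 on the log2 scale. All 3 intervals hold 0, and they leave room for a difference of 0.71 on the log2 scale in either direction between Si-NEC and No NEC pigs.

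C4A encodes C4, whose cleavage follows activation of C1 or of the lectin pathway proteases. The study picked C4A from these same libraries for Si-NEC relative to Co-NEC pigs, so its values here are no independent evidence. Its level was 3.05, 4.75, 2.15, 2.86 and 3.22 FPKM in No NEC pigs 540-14, 228-15, 230-15, 253-15 and 550-14, and 2.13, 2.70, 1.77, 3.82 and 3.13 FPKM in Co-NEC pigs 225-15, 545-14, 552-14, 255-15 and 231-15. The lowest Si-NEC value was 1.47 FPKM in pig 539-14, the median was 2.77 FPKM, and the highest was 15.4 FPKM in pig 246-15. The next highest level of any pig was 4.79 FPKM in Si-NEC pig 224-15, 3.21-fold under that of pig 246-15, and No NEC pig 228-15 was close to pig 224-15 at 4.75 FPKM. The remaining 4 Si-NEC pigs lay among the pigs of the other groups or below them.

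Group means of C4A were 3.21 ± 0.953 FPKM in No NEC, 2.71 ± 0.810 FPKM in Co-NEC and 4.92 ± 5.24 FPKM in Si-NEC pigs, the SD of the Si-NEC group exceeding its mean. The log2 fold change of Si-NEC relative to Co-NEC pigs was 0.40 (SE 0.44, 95% interval −0.56 to 1.36, exact permutation p = 0.537). Against No NEC pigs it was 0.19 (SE 0.44, 95% interval −0.77 to 1.16, exact permutation p = 0.790). Without pig 246-15 these values were 0.01 and −0.19, the latter with the opposite sign. Pig 246-15 takes no part in the comparison of Co-NEC with No NEC pigs, which gave −0.21 (SE 0.22, 95% interval −0.68 to 0.27, exact permutation p = 0.381).

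SERPING1, the gene of the C1 inhibitor, was measured at 21.2, 21.0, 22.5, 16.4 and 20.0 FPKM in No NEC pigs 540-14, 228-15, 230-15, 253-15 and 550-14. Co-NEC pigs 225-15, 545-14, 552-14, 255-15 and 231-15 had 20.5, 20.2, 16.3, 15.5 and 18.5 FPKM. Among Si-NEC pigs the range ran from 14.8 FPKM in pig 539-14 to 47.5 FPKM in pig 246-15, with a median of 18.7 FPKM and 30.5 FPKM in pig 223-15. These 2 Si-NEC pigs were above all other pigs, and the remaining 4 Si-NEC pigs lay between 14.8 and 19.2 FPKM, within or below the range of the No NEC pigs.

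The means of SERPING1 were 20.2 ± 2.30 FPKM in No NEC, 18.2 ± 2.25 FPKM in Co-NEC and 24.7 ± 12.4 FPKM in Si-NEC pigs. A log2 fold change of 0.17 (SE 0.26, 95% interval −0.40 to 0.74, exact permutation p = 0.608) was found in Si-NEC relative to No NEC pigs and one of 0.32 (SE 0.26, 95% interval −0.24 to 0.88, exact permutation p = 0.353) against Co-NEC pigs. Leaving out pig 246-15 gave −0.04 and 0.11. In Co-NEC relative to No NEC pigs it was −0.15 (SE 0.12, 95% interval −0.41 to 0.11, exact permutation p = 0.183).

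C3 encodes the central component whose fragments coat targets and bind complement receptor 3 on microglia. It stood at 5.86, 4.87, 3.45, 3.57 and 4.17 FPKM in No NEC pigs 540-14, 228-15, 230-15, 253-15 and 550-14, and at 3.93, 6.00, 5.99, 6.62 and 6.75 FPKM in Co-NEC pigs 225-15, 545-14, 552-14, 255-15 and 231-15. In Si-NEC pigs it ranged from 2.93 FPKM in pig 547-14 to 6.29 FPKM in pig 226-15, with a median of 4.05 FPKM. Thus 4 of 5 Co-NEC pigs were above all No NEC pigs, while Co-NEC pig 225-15 lay among them. Of the 6 Si-NEC pigs, 3 were below all Co-NEC pigs, and 2 of 5 Co-NEC pigs were above all Si-NEC pigs.

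The mean level of C3 was 4.38 ± 0.999 FPKM in No NEC, 5.86 ± 1.13 FPKM in Co-NEC and 4.37 ± 1.33 FPKM in Si-NEC pigs. The difference between Co-NEC and No NEC pigs was 0.38 on the log2 scale (SE 0.18, 95% interval −0.01 to 0.77), with an exact permutation p of 0.0794 and an adjusted p of 0.812 over all entries. Between Si-NEC and Co-NEC pigs it was −0.41 (SE 0.20, 95% interval −0.84 to 0.02), with an exact permutation p of 0.0909 and an adjusted p of 0.867. Both comparisons use the same Co-NEC pigs. Si-NEC and No NEC pigs differed by −0.03 (SE 0.20, 95% interval −0.47 to 0.42, exact permutation p = 0.903). Leaving out Co-NEC pig 225-15 gave 0.51 and −0.53 for the former pair of differences, with adjusted p of 0.927 and 0.978, so that C3 did not pass the test with or without that pig.

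No member passed the test in any comparison. The test was limma on log2(FPKM + 0.5), with p-values adjusted by Benjamini-Hochberg over all 13590 entries and called under an adjusted p of 0.2. Si-NEC relative to No NEC pigs had 0 of 4 members called, with 0.00736% of all entries called, 0 of 4 at an unadjusted p under 0.05, where 2.61% of all entries were, and 0 of 4 with values that did not overlap between the groups, where 0.155% did not. Co-NEC relative to No NEC pigs had 0 of 4 in each respect, the shares of all entries being 0.00736%, 3.44% and 0.464%. Si-NEC relative to Co-NEC pigs likewise had 0 of 4, beside 0.0147%, 5.64% and 0.545% of all entries. The smallest two-sided p the exact test allows is 0.00794 for 5 against 5 pigs and 0.00216 for 6 against 5. Over all entries, 1 was called in each comparison with No NEC pigs and 2 between the NEC groups, so that 0 of 4 members called is no result about the members.

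**Figure D2:**
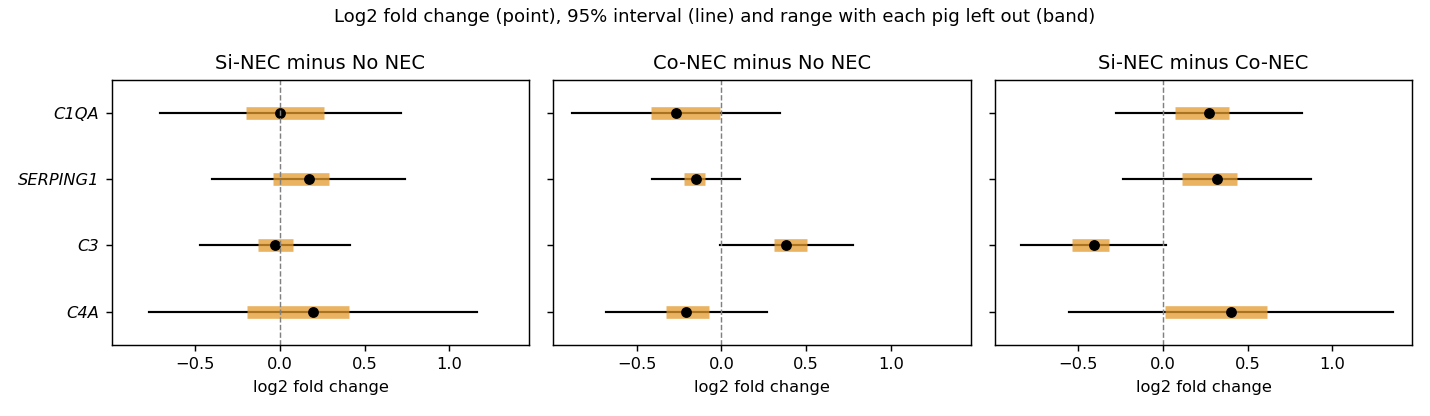
Log2 fold change on the log2(FPKM + 0.5) scale (horizontal axis) of C1QA, SERPING1, C3 and C4A in the 3 comparisons, as the estimate (point), its 95% interval (line) and the range of estimates with each pig left out in turn (band). Every interval crosses 0, the bands of all 4 genes cross 0 between Si-NEC and No NEC pigs, and the band of C4A spans 0.01 to 0.62 between Si-NEC and Co-NEC pigs.

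The members were also compared within each sex and within each suffix of the pig's number. Every pig ending in 14 was male and every female ended in 15, so the suffix and sex splits overlap and are not separate checks. In Si-NEC relative to No NEC pigs the 4 members were all lower among pigs ending in 14 (2 against 2 pigs), with log2 differences of −0.47 for C1QA, −0.57 for C3, −0.62 for C4A and −0.31 for SERPING1. Among pigs ending in 15 (4 against 3 pigs) all 4 were higher, at 0.23, 0.28, 0.60 and 0.42. The pooled differences therefore did not hold within both suffixes, and the 3 pigs that stand out, 223-15, 230-15 and 246-15, all end in 15. Between Co-NEC and No NEC pigs each member kept its direction in both suffixes, C3 at 0.25 and 0.47, C1QA at −0.42 and −0.17, C4A at −0.43 and −0.06 and SERPING1 at −0.18 and −0.13. In the same comparison C3 (0.62 in females and 0.22 in males), C4A (−0.08 and −0.29) and SERPING1 (−0.13 and −0.16) also kept it in both sexes. Between Si-NEC and Co-NEC pigs C3 was at −0.83 and −0.19 in the suffixes and at −0.54 and −0.35 in the sexes. C1QA, in contrast, was 0.47 higher in female Co-NEC than female No NEC pigs and −0.76 in males, a difference between the sexes of −1.23 (SE 0.46) that did not pass adjustment (adjusted p = 0.926 by limma). Between Si-NEC and No NEC pigs all 4 members were higher in females and lower in males, at 0.81 and −0.66 for C1QA, 0.08 and −0.12 for C3, 0.66 and −0.34 for C4A and 0.69 and −0.32 for SERPING1. The difference between the sexes was −1.47 (SE 0.55) for C1QA and −1.01 (SE 0.41) for SERPING1, each with an adjusted p of 0.439 by limma. C7 and ITGAM of the wider list shared this adjusted p, the smallest of any complement gene in this comparison. Females 223-15 and 246-15 hold the 2 highest Si-NEC values of both C1QA and SERPING1. The male No NEC pigs include 230-15, the highest of all pigs for C1QA at 59.1 FPKM, and the female Si-NEC pigs include 223-15 at 58.5 FPKM. The contrasts between the sexes were not computed without these 2 pigs.

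Pig 246-15, which held the highest C4A and SERPING1, also had the highest C2, the classical pathway protease whose gene lies near C4A. C2 was at 1.71 FPKM there, against 0.179 to 0.463 FPKM in the remaining 15 pigs, below the minimum mean for testing. CFB, whose gene lies nearer to C4A, was at 6.24 FPKM in pig 246-15, under pigs 224-15 (6.67 FPKM), 228-15 (6.46 FPKM) and 223-15 (6.45 FPKM). The 5 interferon response genes that could be measured, IFIT2, MX1, MX2, RSAD2 and USP18, summed to 332 FPKM in pig 246-15 and to 29.2 to 64.4 FPKM in the other pigs. S100A8, a gene of neutrophils and activated myeloid cells, was at 25.0 FPKM in pig 246-15, at 2.21 to 25.0 FPKM over the Si-NEC pigs, at 0.764 to 3.09 FPKM in No NEC and at 0.734 to 2.31 FPKM in Co-NEC pigs. Of the other neutrophil markers found, MPO was at 0.0361 to 0.940 FPKM and CSF3R was listed at 0 in every pig. The microglial markers of pig 246-15 summed to 86.9 FPKM, rank 11 of 16. The part of these differences in the values of C4A and SERPING1 was not tested.

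The genes whose levels followed each member most closely over the 16 pigs were taken from all tested entries with a symbol, by Pearson's r of log2(FPKM + 0.5). For C4A they were ATF3 (r = 0.921), RHBDF2, PLAT, SEMA3F and CXCL8 (r = 0.872), each highest in pig 246-15. Without that pig the r of ATF3 was 0.759 and that of CXCL8 was 0.494. For SERPING1 they were PHF11 (r = 0.893), FOS, IFIT5, HACD4 and TINAGL1 (r = 0.809), all again highest in pig 246-15, with an r of 0.703 for PHF11 and 0.494 for TINAGL1 without it.

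The closest genes to C1QA were RPS23 (r = 0.940), a ribosomal protein gene, RRP36, KARS1, OAT and UQCC2 (r = 0.915), and all 5 were highest in pig 223-15 or 230-15. Without pig 230-15 alone the r was 0.908 for RPS23 and 0.879 for UQCC2, and it was not computed without pig 223-15. C3 had the weakest companions of the 4 members, CAPN3 (r = 0.790), ACBD5 (r = 0.773), LPXN, ATP10D and COPB2 (r = 0.737). The pig with the highest level was 223-15 for CAPN3 and COPB2, 545-14 for ACBD5, 226-15 for LPXN and 231-15 for ATP10D.

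C1QA was compared with the mean of 6 microglial marker genes, CSF1R, P2RY12, CX3CR1, GPR34, TYROBP and LAPTM5, because microglia are the known source of C1q. Their summed level was 76.8 to 151 FPKM in No NEC, 76.9 to 120 FPKM in Co-NEC and 61.0 to 181 FPKM in Si-NEC pigs, highest in pigs 223-15 and 230-15 as C1QA was. Neuronal SYT1, PROX1 and STMN2 also had their highest sums in these pigs (1652 FPKM in 230-15 and 1441 FPKM in 223-15). The astrocyte sum was highest in pig 223-15, with pig 230-15 at rank 11 of 16. C1QA was not correlated with those lists. Over the 16 pigs C1QA and the microglial marker mean had a Pearson r of 0.804 and a Spearman rho of 0.847, with adjusted permutation p of 0.00065 and 0.00045 over 5 relations. With the 2 pigs farthest from the marker median (547-14 and 223-15) left out r was 0.696, and without pigs 223-15 and 230-15 it was 0.704 (adjusted permutation p = 0.0174). Within the suffix 14 it was 0.804 (exact permutation, n = 6, adjusted p = 0.0741), within the suffix 15 it was 0.777 (permutation test, n = 10, adjusted p = 0.0406), and with the group means removed it was 0.867. In bulk tissue, fewer cells of a type and less RNA per cell cannot be told apart.

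**Figure D3:**
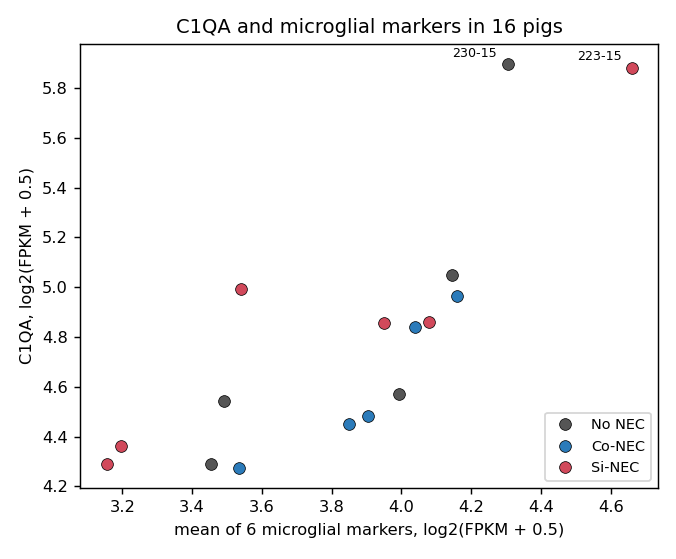
C1QA (vertical axis) against the mean of 6 microglial marker genes (horizontal axis), both as log2(FPKM + 0.5), with 1 point per pig coloured by group. Pigs 230-15 and 223-15 lie at the upper right, and r is 0.804 over 16 pigs and 0.704 without these 2.

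Over all 16 pigs, the other 4 relations looked at were weaker than that of C1QA with the microglial markers, but not in every setting. C3 and the microglial marker mean had an r of 0.512 and a rho of 0.521 (adjusted permutation p = 0.110 and 0.101), and r was 0.390 without the 2 pigs farthest from the median, 547-14 and 223-15 (adjusted permutation p = 0.331). Without pigs 223-15 and 230-15, on the other hand, it was 0.714 (adjusted permutation p = 0.0174), and it was 0.850 within the suffix 14 and 0.345 within the suffix 15. SERPING1 and the mean of 7 meningeal, fibroblast and mural genes had an r of 0.300 and a rho of 0.471 (adjusted permutation p = 0.417 and 0.113), with an r of 0.361 without the 2 farthest pigs, 0.923 within the suffix 14 and 0.140 within the suffix 15. The rho of this relation was 0.635 without the 2 farthest pigs, 0.692 without pigs 223-15 and 230-15 and 1.0 within Si-NEC pigs. Its adjusted permutation p was 0.0427, 0.0131 and 0.0139 there, 0.0833 within the suffix 14 and 0.746 within the suffix 15. For C4A and 3 astrocyte genes r was 0.106 and rho 0.274 (adjusted permutation p = 0.733 and 0.382), r being 0.141 without the 2 farthest pigs, 0.211 within the suffix 14 and −0.092 within the suffix 15. C3 and C4A had an r of 0.109 and a rho of 0.229 (adjusted permutation p = 0.733 and 0.389), r being 0.0547 without the 2 farthest pigs, 0.272 within the suffix 14 and 0.0350 within the suffix 15.

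A wider list of 42 complement genes was set beside the members. Of these, 28 were found by ID and 15 reached a mean of 0.5 FPKM and were tested. The remaining 13 had a lower mean. Of these, 10 had values above 0, the highest being the 1.71 FPKM of C2 in pig 246-15. C3AR1, the receptor of the C3a fragment, MBL2 and SUSD4 were listed at 0 in every pig, as ALDH1L1 was, so that whether they were expressed cannot be read from the table. The highest of the tested genes was CLU, clusterin, an inhibitor of the terminal pore with other roles in lipid transport, at 1106 to 2365 FPKM. Next by mean level came CFI (5.83 to 15.5 FPKM), the protease that inactivates C3b and C4b, and MASP1 (9.09 to 13.3 FPKM), a lectin pathway protease, both above the median level of all tested entries (9.44 FPKM).

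None of the 15 was called in any comparison. In Si-NEC relative to No NEC pigs, 7 had a log2 fold change above 0 and 8 below, with a median of −0.01 beside 0.02 over all entries, of which 53.8% were above 0. The split ran from 4 above and 11 below without No NEC pig 253-15 to 10 above and 5 below without Si-NEC pig 539-14, and was 5 to 10 with sex or suffix as a covariate. In Co-NEC relative to No NEC pigs, 2 were above 0 and 13 below, with a median of −0.11 beside 0.01, and 52.0% of all entries were above 0. Without No NEC pig 230-15 the split was 6 to 9 and the median −0.02. In Si-NEC relative to Co-NEC pigs 11 were above 0 and 4 below, with a median of 0.08 beside 4.8e-05, and 50.1% of all entries were above 0. Leaving out pig 223-15 gave a split of 7 to 8 and a median of −0.03. Rescaling the pigs by the median of ratios changed none of these 3 splits.

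**Figure D4:**
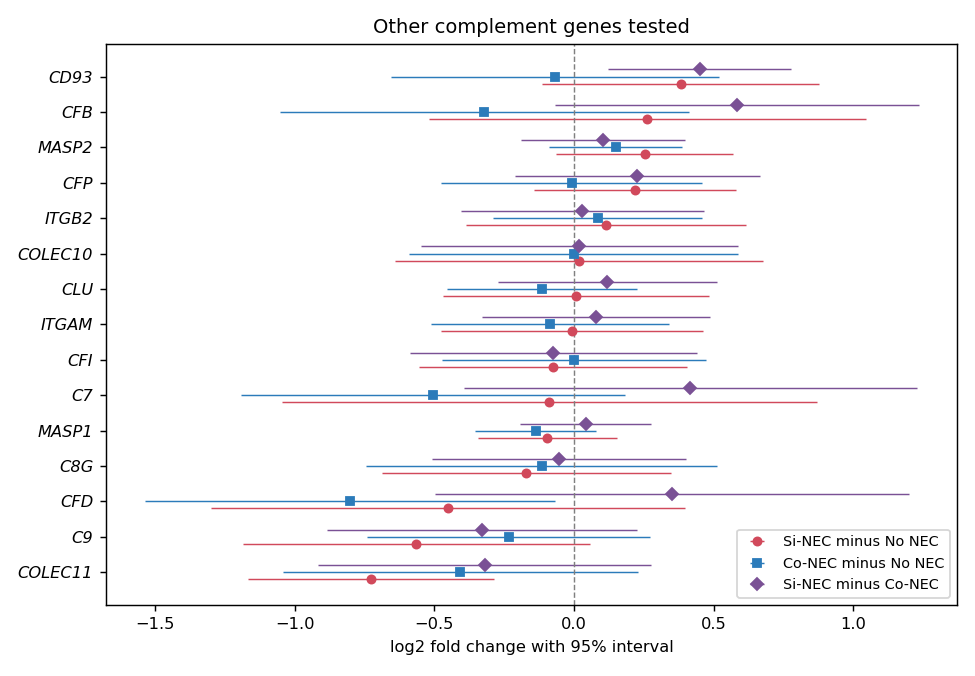
Log2 fold change with its 95% interval (horizontal axis) of the 15 other complement genes tested, for Si-NEC minus No NEC (circles), Co-NEC minus No NEC (squares) and Si-NEC minus Co-NEC (diamonds). The intervals of COLEC11 in Si-NEC minus No NEC, CFD in Co-NEC minus No NEC and CD93 in Si-NEC minus Co-NEC lie apart from 0, and none of the 3 passed adjustment.

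Among the recognition molecules and proteases of the lectin pathway, COLEC11, which encodes a collectin that binds sugars, was at 5.71, 8.33, 4.16, 6.03 and 6.44 FPKM in No NEC pigs 540-14, 228-15, 230-15, 253-15 and 550-14. Si-NEC pigs ranged from 2.64 to 5.46 FPKM with a median of 3.24 FPKM, and 5 of 6 were below all No NEC pigs, pig 223-15 being the exception. The difference on the log2 scale was −0.73 (SE 0.20, 95% interval −1.17 to −0.29), rank 29 of 13590 entries by p, with an exact permutation p of 0.0108 and an adjusted p of 1 by limma. Without pigs 223-15 and 230-15 it was −0.97 with an adjusted p of 0.387, and with weights for each pig it was −0.90 with an adjusted p of 0.182, past the threshold. In Co-NEC pigs COLEC11 ranged from 2.16 to 7.0 FPKM, with log2 fold changes of −0.41 (SE 0.29) against No NEC pigs and −0.32 (SE 0.27) in Si-NEC relative to Co-NEC pigs. Without Co-NEC pig 231-15 these were −0.19 and −0.54, and without Co-NEC pig 552-14 they were −0.56 and −0.17. MASP2, the protease that cleaves C4 and C2, had a log2 fold change of 0.25 (SE 0.15) in Si-NEC and 0.15 (SE 0.11) in Co-NEC relative to No NEC pigs. For MASP1 it was −0.14 (SE 0.10) in Co-NEC relative to No NEC pigs.

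In the alternative pathway, CFD encodes factor D, the protease that cleaves factor B. Its level was 6.38, 5.90, 14.6, 4.75 and 6.95 FPKM in No NEC pigs 540-14, 228-15, 230-15, 253-15 and 550-14, and 3.04, 6.61, 4.39, 4.93 and 1.89 FPKM in Co-NEC pigs 225-15, 545-14, 552-14, 255-15 and 231-15. Of the 5 Co-NEC pigs, 3 were below all No NEC pigs. The difference on the log2 scale was −0.80 (SE 0.33), with an exact permutation p of 0.0635 and an adjusted p of 0.812 by limma, and it was −0.56 without pig 230-15. CFB, factor B, had a log2 fold change of 0.58 (SE 0.30) in Si-NEC relative to Co-NEC pigs, with means of 4.58 ± 2.07 and 2.77 ± 0.989 FPKM and 3 of 6 Si-NEC pigs above all Co-NEC pigs (exact permutation p = 0.108). CFP, properdin, was at 0.22 (SE 0.17) in Si-NEC relative to No NEC and 0.23 (SE 0.20) against Co-NEC pigs.

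Of the terminal components, C9, which forms the pore, was at 1.22 ± 0.507 FPKM in No NEC, 0.927 ± 0.276 FPKM in Co-NEC and 0.677 ± 0.385 FPKM in Si-NEC pigs. The log2 fold change of Si-NEC relative to No NEC pigs was −0.56 (SE 0.28, exact permutation p = 0.0779) and that against Co-NEC pigs −0.33 (SE 0.25). C9 was lowest in pig 223-15 (0.0744 FPKM) and highest in pig 230-15 (1.75 FPKM). Without both pigs these differences were −0.26 and −0.14, and without pig 223-15 alone −0.37 and −0.14. C7 was under 2 FPKM in all pigs, with a log2 fold change of −0.51 (SE 0.31) in Co-NEC relative to No NEC pigs. C6, C8A and C8B were below the minimum mean.

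CD93 encodes a receptor of endothelial and myeloid cells that was once described as a C1q receptor. It was at 8.04, 10.6, 6.90, 7.68 and 5.38 FPKM in Co-NEC pigs 225-15, 545-14, 552-14, 255-15 and 231-15, and at 8.78 to 12.2 FPKM with a median of 10.8 FPKM in Si-NEC pigs, 3 of 6 of which were above all Co-NEC pigs. The log2 fold change was 0.45 (SE 0.15, 95% interval 0.12 to 0.78), with an exact permutation p of 0.0195 and an adjusted p of 0.851 by limma. Against No NEC pigs it was 0.38 (SE 0.23) and, without pigs 223-15 and 230-15, 0.18. The 3 endothelial markers measured, PECAM1, KDR and FLT1, summed to 17.3 to 32.1 FPKM in Si-NEC, 17.1 to 24.1 FPKM in Co-NEC and 9.61 to 27.6 FPKM in No NEC pigs, lowest in pig 230-15, where CD93 was lowest as well (3.71 FPKM). Their part in the difference in CD93 was not tested. ITGAM and ITGB2, which encode the chains of complement receptor 3, had log2 fold changes between −0.09 and 0.11 in the 3 comparisons.

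The pigs differed in how often they held an extreme level among the 19 complement genes tested. Si-NEC pig 539-14 had the lowest level of 7 of the 19 genes, against 7.67% of all tested entries, and its microglial markers summed to 65.0 FPKM, the second lowest of the pigs. Si-NEC pig 547-14, with the lowest microglial sum (61.0 FPKM), had the lowest level of 2 of the 19, against 3.56% of all entries. Si-NEC pig 224-15 had the highest level of 5 of the 19, against 4.82% of all entries, and pig 230-15 of 4, against 26.3%. Of the 5 Co-NEC pigs, 1 held the highest level of any of these genes, which was C3 in pig 231-15. Over all tested entries, each Co-NEC pig held the highest value of only 2.33% to 4.81%.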

How the data were processed

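RNA of 16 hippocampi was sequenced as paired reads. Per the labels and the study's methods, reads were trimmed by the authors, mapped to Sscrofa10.2 with TopHat2 2.1.1 and turned into FPKM with Cufflinks 2.2.1; these deposited FPKM were used as given. Such values depend on the annotation and on the library total, and counts and depth are unknown. The table held 24594 entries, of which 1779 identical repeats were dropped, leaving 22815. Symbols were matched by gene ID (11001 IDs with a symbol).

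The 13590 entries whose mean reached 0.5 FPKM were tested between each pair of groups with limma 3.58.1 (R 4.3.3) on log2(FPKM + 0.5) with a trended prior, Benjamini-Hochberg adjustment and the study's level of 0.2. A fold change is on this scale and understates that of low genes. Single genes also had a two-sided exact permutation test over all splits of the pigs. Correlations had 100000 permutations or, within fewer than 10 pigs, all of them, with ranks and adjustment by scipy 1.17.1. Replicates are separate pigs, and litters are unknown. Scripts were tested on simulated data. Alternatives were pseudocounts of 0.1 and 1, no minimum and 1 FPKM, rescaling, 1 fit of all groups, sex or number suffix as covariate, no trend, array weights and each pig left out. Leaving out pigs 223-15 and 230-15 together was chosen after seeing the data. The members and lists were chosen with earlier results of these data known. All members are named, and of the wider list the 5 genes with the smallest p in each comparison, with C2, CLU, CFI, ITGAM, ITGB2 and genes at 0 named after their values were seen. Planned descriptions of promoters and proteins, and 10 of 15 planned correlations, were not made. A few genes are not reported here and were left out of the lists and of the closest genes. Marker lists held 11 microglial genes (6 measured), 7 astrocyte genes (3), 7 neuronal genes (3), 5 oligodendrocyte genes (1), 6 endothelial genes (3), 8 meningeal, fibroblast and mural genes (7), 5 choroid plexus genes (1), 5 neutrophil genes (1), 4 erythroid genes (3) and 10 interferon response genes (5).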

Additional observations from a re-analysis of the deposited data

Results flagged for a closer look

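In 42 groups of values, the highest or lowest pig was compared with the gap to its nearest neighbour by Dixon's ratio, which chance alone passes in about 1 of 20 groups. The following values passed. C1QA was at 58.5 FPKM in Si-NEC pig 223-15, where the other Si-NEC pigs had 19.0 to 31.3 FPKM. C3 was at 3.93 FPKM in Co-NEC pig 225-15, beside 5.99 to 6.75 FPKM in the other Co-NEC pigs. C4A was at 15.4 FPKM in Si-NEC pig 246-15, beside 1.47 to 4.79 FPKM. CFD was at 14.6 FPKM in No NEC pig 230-15, beside 4.75 to 6.95 FPKM. The summed FPKM was 864931 in No NEC pig 230-15, beside 558369 to 637126, and 823320 in Si-NEC pig 223-15, beside 597356 to 645197.

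Between Co-NEC and No NEC pigs, 11 of the 19 complement genes tested had effects of opposite sign in the sexes. For C1QA and C9, among the genes named, every female Co-NEC pig was above every female No NEC pig and every male Co-NEC pig below every male No NEC pig. The share of all tested entries with opposite signs or with such separation is not given here. With 2 or 3 pigs of a sex in each group, neither pattern can therefore be read as particular to these genes. None of the 19 genes passed adjustment for a difference between the sexes in this comparison (smallest adjusted p = 0.926 by limma). C1QA was 0.47 higher on the log2 scale in females and lower in males (−0.76), a male minus female difference of −1.23. C9 was at 0.32 in females and −0.60 in males, a difference of −0.92. Each had an unadjusted interaction p of 0.027 and an adjusted p of 0.926 by limma, with 2 females and 3 males in each group. The male values include No NEC pig 230-15, the highest of all pigs in C1QA (59.1 FPKM) and C9 (1.75 FPKM), and were not computed without it.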

How the results depend on the processing

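Over 272 values of the 4 members under all settings, none was called, and the smallest adjusted p was 0.438. The count of genes called was 1, 1 and 2 in Si-NEC against No NEC, Co-NEC against No NEC and Si-NEC against Co-NEC pigs. The first was 2 with the number suffix and 4 with array weights, and 1 to 3 with single pigs left out. The second was 4 with no minimum mean and 1 to 2 with single pigs left out. The third was 1 with a pseudocount of 0.1, no minimum mean, a single fit, sex or suffix as covariate, an adjusted p under 0.05 or without pigs 223-15 and 230-15, 201 with array weights, and 1 to 12 with single pigs left out. In Si-NEC against No NEC pigs the sign turned for C1QA with rescaling (−0.0022), sex (−0.0046) or suffix (−0.0288) and for C4A with array weights (−0.0112). With single pigs left out the values were −0.20 to 0.26 for C1QA, −0.131 to 0.075 for C3, −0.19 to 0.41 for C4A and −0.0394 to 0.29 for SERPING1. The causes were not tested. C1QA and microglial markers lost the 0.05 level after adjustment within suffix 14 (r = 0.804) and Si-NEC pigs (r = 0.915), which hold fewer pigs. C3 and microglial markers passed without pigs 223-15 and 230-15 (r = 0.714), SERPING1 and meningeal, fibroblast and mural genes within suffix 14 (r = 0.923), and C4A and astrocyte genes turned sign within suffix 15 (r = −0.092). By rho, SERPING1 and the meningeal, fibroblast and mural genes passed within Si-NEC pigs, without the 2 farthest pigs and without pigs 223-15 and 230-15. No paired analysis was made, as each pig belongs to a single group and the labels give no litter. What depth limits is unknown from FPKM.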

Other observations

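TTR, a choroid plexus gene, was at 4.73 to 23.4 FPKM in No NEC, 0 to 13.1 FPKM in Co-NEC and 5.39 to 25.3 FPKM in Si-NEC pigs. The erythroid genes HBB, ALAS2 and HBM summed to 85.6 to 1298 FPKM in No NEC, 72.3 to 329 FPKM in Co-NEC and 22.3 to 248 FPKM in Si-NEC pigs. The oligodendrocyte gene OPALIN was at 33.0 to 83.6 FPKM in No NEC, 30.7 to 64.7 FPKM in Co-NEC and 23.0 to 53.4 FPKM in Si-NEC pigs.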
